A study of Mus musculus with 8 samples.

Results

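The mitochondrial carrier genes of the Slc25 family were followed in E14 mouse ESCs, a feeder-independent embryonic stem cell line, after stable depletion of KDM2B. Every gene whose symbol is Slc25a followed by a number and that has a probe set naming it alone was taken as a member, which gave 46 of the 19938 genes measured in this way. The 46 genes were read by 50 probe sets, 1 each for 43 genes and several for Slc25a5, Slc25a36 and Slc25a40. The knockdown group (shKdm2b) comprised 4 samples of E14 cells that stably carried a lentiviral shRNA against Kdm2b, at passages 27 to 30. The control group (shScr) comprised 4 samples of E14 cells with a scrambled shRNA, at passages 28 to 31. Both groups had been transduced, selected with puromycin and grown with LIF, and each knockdown sample was 1 passage younger than the control of its replicate number. Each group rests on 1 shRNA sequence, and independently derived lines are not described, so that p-values cover the spread between samples and not between lines or shRNAs. Total RNA of each sample was hybridised to 1 Affymetrix Mouse Gene 1.0 ST array.

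Most Slc25 proteins sit in the inner mitochondrial membrane, which is otherwise impermeable to most metabolites, and exchange nucleotides, phosphate, carboxylic acids, amino acids, cofactors and metals between cytosol and matrix. Exceptions such as Slc25a17 and Slc25a46 lie in peroxisomes or in the outer mitochondrial membrane. The inner membrane carriers are made in the cytosol and brought in through the TOM complex of the outer membrane and the TIM22 complex of the inner membrane. In proliferating cells such as ESCs, these carriers set which intermediates of the citric acid cycle, of the malate-aspartate shuttle and of one-carbon metabolism can leave or enter the matrix. KDM2B binds non-methylated CpG dinucleotides through its ZF-CxxC domain and recruits a variant PRC1 complex, and the comparison asks which genes depend on it.

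The values are log2 signals, so that a difference of 1 is a doubling. Kdm2b signal itself fell by 75.9% in the knockdown arrays. Probe sets differ in how strongly their probes hybridise, and levels of different genes were therefore not ranked. The median of all probe sets was 8.49, and 11 of the 46 carriers had a mean signal below it. In RNA from whole cultures, fewer cells that express a gene and less RNA per cell cannot be told apart. On the first principal component of all probe sets, knockdown replicate 3 lay nearest to the controls. Of 9 pluripotency markers, none passed in either direction (limma), and at an unadjusted p below 0.05 there were 6 higher and 0 lower genes. Of all genes, 10.7% passed at an adjusted p under 0.05, and 30.4% had an unadjusted p under 0.05 (limma, either direction). The mean log2 signal of the pluripotency markers was 13.29 to 13.33 on the knockdown arrays and 13.05 to 13.23 on the control arrays. The mean of 7 neural markers was 8.75 to 8.90 on the knockdown and 9.13 to 9.48 on the control arrays, and 2 of them passed, both lower. Of these 7, 4 had a negative log2 fold change and 3, Tubb3, Sox1 and Dcx, a positive one. The mean of 9 fibroblast markers was 8.08 to 8.32 against 8.05 to 8.40, with 4 markers below the median of all probe sets and 1 passing, higher. The mean of 8 primitive endoderm markers was 8.92 to 9.25 against 8.93 to 9.11, with 1 passing, higher, and the largest change, that of Dab2, in the other direction without passing. For 7 germ cell markers, which include Slc25a31, it was 9.37 to 9.74 against 9.23 to 9.70, with 2 passing, both higher. The part of other cell types in the results below was not tested.

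Few carriers changed, and they did so in both directions. Of the 46 genes, 1 was higher and 3 were lower in the knockdown arrays at an adjusted p under 0.05 (limma, Benjamini-Hochberg over all probe sets), and 42 did not pass. These 4 genes are 8.7% of the family, while 10.7% of all genes passed in the same comparison (5.93% higher and 4.80% lower). Under the stricter gene rule of the study, which asks that a majority of a gene's probe sets pass and that the most significant one change at least 1.5-fold, 1 carrier was changed, a lower one, against 2.85% of all genes (1.42% higher and 1.43% lower). All 4 knockdown arrays lay above all 4 control arrays for 6 carriers and below them for 5, against 11.8% and 9.18% of all genes. Together these are 23.9% of the family, against 21.0% of all genes. At an unadjusted p under 0.05, 7 carriers were higher and 6 lower, or 28.3% against 30.4% of all genes (limma). The median log2 fold change was 0.06 for the carriers and 0.05 for all genes, and the median size of a change was 0.12 in both. In this fit, which takes no account of pairs, the share of carriers was close to the background on each of these measures. In a limma fit that takes the replicate number as a block, called the blocked fit here, 4 carriers were higher and 6 lower, against 7.95% and 6.82% of all genes. These 10 are 21.7% of the family, against 14.8% of all genes, and whether the shares differ was not tested.

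**Figure D1:**
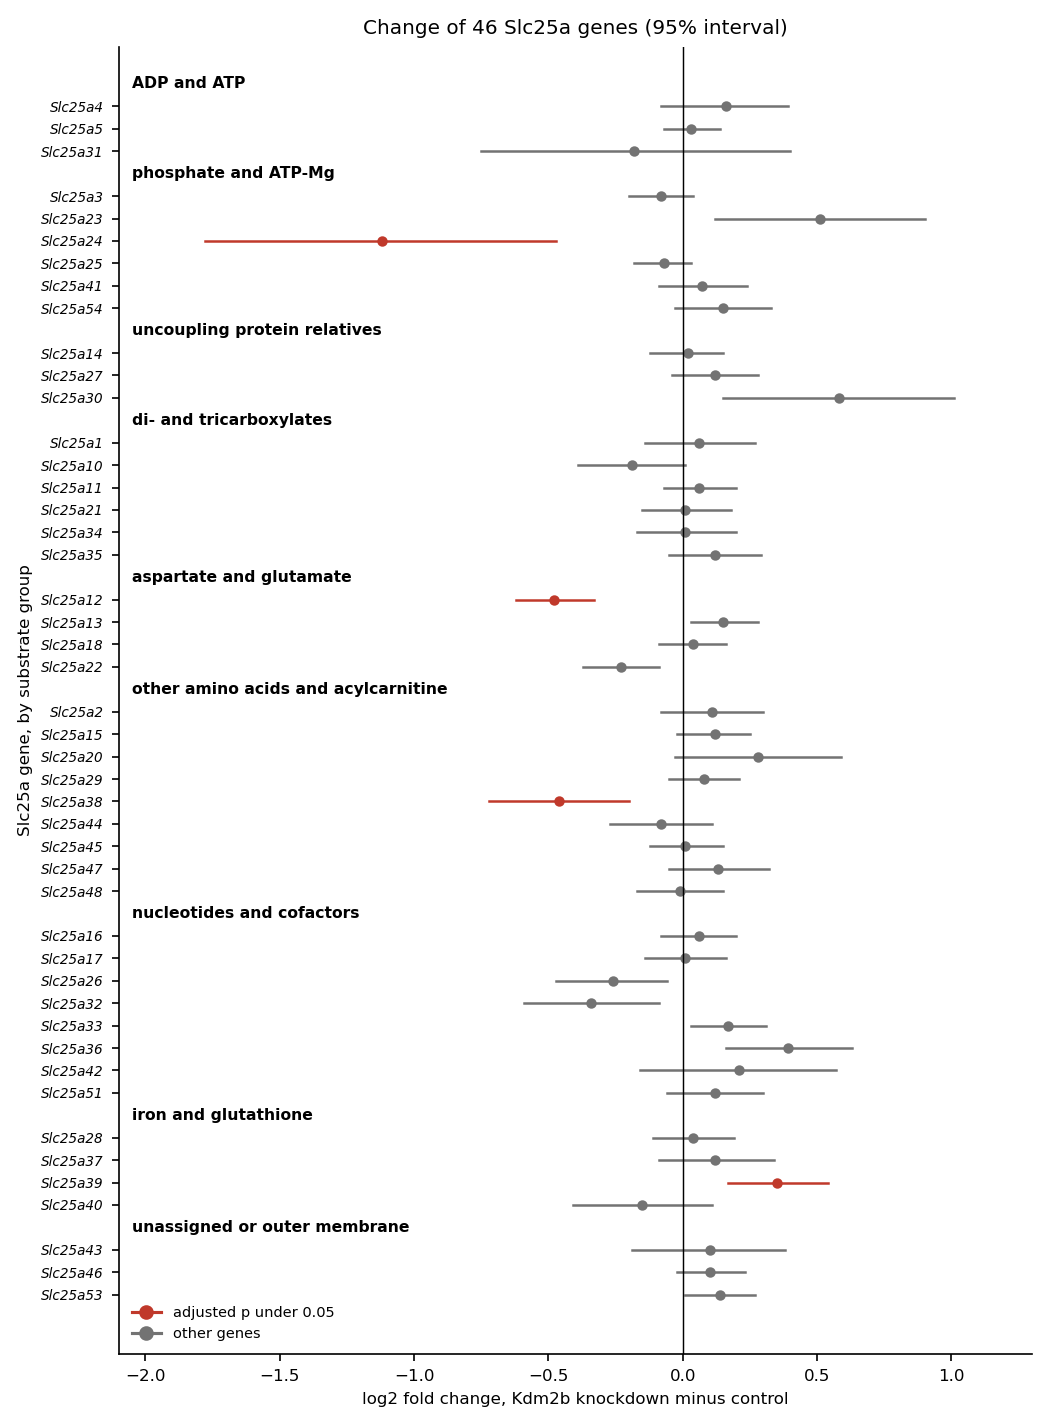
Log2 fold change (knockdown minus control) of the 46 Slc25a genes, grouped by substrate. Points are differences of the means of 4 arrays per group, lines are 95% confidence intervals from limma, and red marks an adjusted p under 0.05. The 4 red genes are Slc25a24, Slc25a12, Slc25a38 and Slc25a39, and most other points lie close to 0.

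For most of the other carriers the interval of the measured difference was narrow. Of the 42 genes that did not pass, 36 had a 95% confidence interval that lay within 1.5-fold in both directions. Of these, 10 had a mean signal below the median of all probe sets, where differences are understated, so that their intervals do not bound the change in RNA. The other 6 were Slc25a20, Slc25a23, Slc25a30, Slc25a31, Slc25a32 and Slc25a36. For 26 of the 46 carriers the measured change was under 1.1-fold.

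The promoters of the 4 carriers that passed are shown because KDM2B recognises CpG dinucleotides. Each sequence holds the 250 bases before the RefSeq start site on GRCm38.p6, written 5′ to 3′ on the strand of the gene, with every CpG in capitals. The regions are chr2:71367756-71368005 (minus strand) for Slc25a12, chr3:109122899-109123148 (plus strand) for Slc25a24, chr9:120110132-120110381 (plus strand) for Slc25a38 and chr11:102407518-102407767 (minus strand) for Slc25a39.
Slc25a12: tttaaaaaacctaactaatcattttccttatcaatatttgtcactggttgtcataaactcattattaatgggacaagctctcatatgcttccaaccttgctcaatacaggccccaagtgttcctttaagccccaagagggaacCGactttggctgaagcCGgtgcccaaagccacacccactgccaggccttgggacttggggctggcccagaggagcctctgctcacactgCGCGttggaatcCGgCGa
Slc25a24: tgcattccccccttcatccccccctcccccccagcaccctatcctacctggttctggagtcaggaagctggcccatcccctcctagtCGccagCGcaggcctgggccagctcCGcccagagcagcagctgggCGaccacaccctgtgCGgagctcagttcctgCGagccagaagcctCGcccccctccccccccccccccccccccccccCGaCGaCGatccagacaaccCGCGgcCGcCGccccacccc
Slc25a38: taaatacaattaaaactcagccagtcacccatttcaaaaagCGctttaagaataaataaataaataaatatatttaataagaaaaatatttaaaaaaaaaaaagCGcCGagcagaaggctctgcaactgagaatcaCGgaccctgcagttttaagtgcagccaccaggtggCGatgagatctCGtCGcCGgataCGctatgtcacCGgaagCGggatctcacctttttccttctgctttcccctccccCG
Slc25a39: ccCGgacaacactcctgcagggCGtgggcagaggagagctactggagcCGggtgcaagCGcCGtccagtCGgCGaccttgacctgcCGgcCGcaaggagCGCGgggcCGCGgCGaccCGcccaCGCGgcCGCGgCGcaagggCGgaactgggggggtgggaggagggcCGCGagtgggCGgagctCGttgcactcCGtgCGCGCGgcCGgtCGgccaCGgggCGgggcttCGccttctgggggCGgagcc

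In the full 300-base window, which also takes in the first 50 transcribed bases, CpG occurred 12 times for Slc25a12, 19 times for Slc25a24, 17 times for Slc25a38 and 45 times for Slc25a39. Of these, Slc25a39 had the most, but Slc25a40 and Slc25a15, which did not pass, had windows with 47 and 51. Slc25a39 met the usual sequence criteria of a CpG island within this window (GC content above 50% and an observed over expected CpG ratio above 0.6), at 77.3% and 1.02. Slc25a12 and Slc25a24 fell just short in the ratio, at 0.55 and 0.59, and Slc25a38 in GC content, at 45.3%. Of 36 carriers whose promoter was read from the RefSeq table, 19 met both criteria in at least one window, or 52.8%, against 35.8% of all 27025 genes in that table. The 27025 were not restricted to the 19938 genes measured on the arrays. Promoters on 1 chromosome were left out for the carriers and kept for all genes. The 2 shares are therefore not from like sets, and whether they differ was not tested. Counted in the window of each gene that holds the most CpG, the carriers had a median of 18.5 and all genes a median of 8. At least 1 CpG, which reads the same on both strands, stood in 94.6% of all promoters. This is a description of sequence. KDM2B binding and DNA methylation at these promoters were not analysed here.

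Of 4 aspartate and glutamate carriers, 1 fell, Slc25a12, and none rose, while 4.80% of all genes fell and 5.93% rose. Slc25a12 and Slc25a13 encode the calcium-binding exchangers aralar and citrin, which send aspartate out of the matrix in return for glutamate and so drive the malate-aspartate shuttle. The log2 signal of Slc25a12 in the order of replicates 1 to 4, kept for all values by array, was 11.56, 11.50, 11.67 and 11.70 in the knockdown and 12.05, 12.18, 12.07 and 12.03 in the control arrays. All knockdown arrays lay below all control arrays, with little spread within a group. Slc25a12 fell by 28.1%, which is a log2 fold change of -0.48 (standard error, SE, 0.06, 95% interval -0.62 to -0.33, limma adjusted p = 0.00556). It was the most significant change of the family, and it passed when any 1 array was left out (limma adjusted p = 0.00688 to 0.0227). In a comparison restricted to passages 28 to 30 and blocked by passage, its adjusted p was 0.0826 at an unaltered size of -0.48 (limma). The other 3 carriers did not pass in that comparison either, at 0.18 for Slc25a24, 0.189 for Slc25a38 and 0.264 for Slc25a39 (limma adjusted p). Of all genes, 0.873% passed in that comparison. When 1 array was left out, 3.38% to 18.1% of all genes passed, against 10.7% with all arrays.

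Slc25a13 did not pass. Its log2 signal was 11.88, 11.81, 11.72 and 11.82 in the knockdown and 11.60, 11.67, 11.63 and 11.70 in the control arrays. The groups did not overlap and the knockdown arrays were the higher ones, at a log2 fold change of 0.15 (SE 0.05, limma adjusted p = 0.118). Slc25a22 and Slc25a18 encode glutamate carriers that move glutamate with a proton. Slc25a22 signal was 9.52, 9.42, 9.42 and 9.37 in the knockdown and 9.71, 9.66, 9.73 and 9.55 in the control arrays. Here too the groups did not overlap, and the log2 fold change of -0.23 (SE 0.06) missed the threshold at adjusted p = 0.0543 and met it in the blocked limma fit, at adjusted p = 0.0451. Slc25a18 had a log2 fold change of 0.04 (SE 0.05, limma adjusted p = 0.700).

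Among carriers of phosphate and of ATP-Mg, the change was largest in Slc25a24. Slc25a23, Slc25a24 and Slc25a25 encode calcium-regulated carriers that exchange ATP-Mg for phosphate and thereby adjust the adenine nucleotide pool of the matrix. Slc25a24 signal was 8.74, 8.56, 8.57 and 8.67 in the knockdown and 10.72, 9.24, 9.34 and 9.73 in the control arrays. The knockdown arrays lay close together and below every control array, whereas control replicate 1 stood well above the other controls. Some fibroblast markers were also highest on that array, with Col1a1 at 10.37 (9.41 to 9.63 on the other controls), Postn at 7.54 (6.12 to 6.55) and Twist2 at 8.99 (8.51 to 8.62). Among the controls, Col1a2, Lum and Pdgfra were highest there too, by less. Dcn and Col3a1 were highest on other controls, and Thy1 was the lowest control there, at 9.40 (9.47 to 9.52). The mean of the 9 fibroblast markers was highest there, at 8.40. Dab2, of the primitive endoderm markers, was 9.11, 9.17, 9.17 and 9.60 in the knockdown and 10.72, 9.49, 10.12 and 10.52 in the control arrays, at a log2 fold change of -0.95 (SE 0.25, limma adjusted p = 0.0525). Of the 8 primitive endoderm markers, 5 had a positive and 3 a negative log2 fold change. Pdgfra, which is also in this list, was the highest control on control replicate 1 too, by little. Sox7 and Lama1 were the lowest controls there, at 8.53 and 10.35, and Gata4, Gata6, Sox17 and Foxa2 were not the highest. Sox7 passed, at 0.40 (SE 0.09, limma adjusted p = 0.0279). The part of these cells in the Slc25a24 values was not tested. Slc25a24 fell by 54%, at a log2 fold change of -1.12 (SE 0.29, 95% interval -1.78 to -0.47, limma adjusted p = 0.0483), and was the carrier that met the gene rule. Without control replicate 1 the log2 fold change was -0.80 at adjusted p = 0.0117, whereas without any other single array it did not pass (limma adjusted p = 0.0557 to 0.121).

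Slc25a23 signal was 10.59, 10.34, 10.31 and 11.02 in the knockdown and 10.06, 9.84, 9.96 and 10.35 in the control arrays. Knockdown replicate 4 and control replicate 4 were each the highest of their group, and the groups overlapped. Its log2 fold change was 0.51 (SE 0.17, limma adjusted p = 0.103), and it passed in the blocked limma fit, at adjusted p = 0.0139. Slc25a25 was 8.78 to 8.83 in the knockdown and 8.84 to 8.89 in the control arrays, which did not overlap, at a log2 fold change of -0.07 (SE 0.05, limma adjusted p = 0.354). Slc25a3, the phosphate carrier that feeds ATP synthase, had signals of 13.81 to 13.94 in the knockdown and 13.90 to 13.99 in the control arrays, at a log2 fold change of -0.08 (SE 0.05, limma adjusted p = 0.378). Slc25a41 and Slc25a54, relatives of the ATP-Mg carriers, had log2 fold changes of 0.07 and 0.15 and did not pass (limma adjusted p = 0.551 and 0.273).

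**Figure D2:**
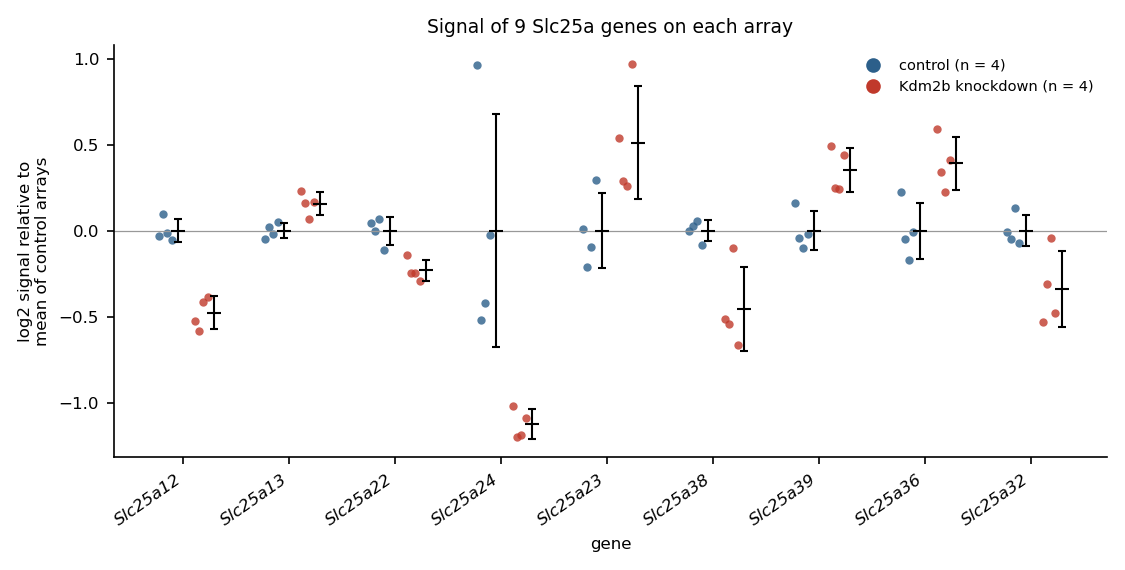
Signal of 9 Slc25a genes by array on the log2 scale, with the control mean of each gene set to 0. Each point is 1 array, with replicates 1 to 4 from left to right, and black bars mark mean and SD of 4 arrays. Slc25a12, Slc25a22, Slc25a24 and Slc25a38 have all knockdown arrays below all control arrays, and Slc25a13, Slc25a36 and Slc25a39 have them above.

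Of the carriers of other amino acids and of acylcarnitine, 1 of 9 passed, against 10.7% of all genes. Slc25a38, which imports glycine for haem synthesis, had signals of 11.19, 11.16, 11.60 and 11.04 in the knockdown and 11.70, 11.73, 11.76 and 11.62 in the control arrays. Knockdown replicate 3 was only just below the lowest control. Slc25a38 fell by 27.1%, at a log2 fold change of -0.46 (SE 0.11, limma adjusted p = 0.0442). Without knockdown replicate 3 the log2 fold change was -0.58 at adjusted p = 0.00444, and without any other single array it did not pass (limma adjusted p = 0.0771 to 0.122). Slc25a15, which carries ornithine for the urea cycle, was 10.69 to 10.89 in the knockdown and 10.61 to 10.67 in the control arrays. These groups did not overlap, but the log2 fold change of 0.12 did not pass (SE 0.06, limma adjusted p = 0.252). Slc25a20, also of this group and described further below, overlapped between groups, at a log2 fold change of 0.28 (SE 0.14, limma adjusted p = 0.241). The remaining genes of this group, Slc25a2, Slc25a29, Slc25a44, Slc25a45, Slc25a47 and Slc25a48, had overlapping groups and log2 fold changes between -0.08 and 0.13.

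Iron and glutathione carriers included the only rise in the family that passed. Slc25a39 and Slc25a40 encode related carriers that import glutathione into the matrix, and Slc25a37 and Slc25a28 encode the iron importers mitoferrin 1 and mitoferrin 2. Slc25a39 signal was 13.27, 13.03, 13.02 and 13.22 in the knockdown and 12.94, 12.74, 12.68 and 12.76 in the control arrays. The groups did not overlap, and replicate 1 was the highest in both. Slc25a39 rose by 27.9%, at a log2 fold change of 0.35 (SE 0.08, 95% interval 0.17 to 0.54, limma adjusted p = 0.0358). It still passed without knockdown replicate 3 or control replicate 1 and did not pass without any 1 of the other 6 arrays (limma adjusted p = 0.0684 to 0.106). Both probe sets of Slc25a40 missed the threshold, at log2 fold changes of -0.15 and 0.04 (SEs 0.12 and 0.11). Slc25a37 and Slc25a28 had log2 fold changes of 0.12 and 0.04 (SEs 0.09 and 0.07, limma adjusted p = 0.451 and 0.728). Neither iron carrier passed.

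None of the 8 nucleotide and cofactor carriers passed (limma). When p was left unadjusted and under 0.05, 2 were higher and 2 lower, against 30.4% of all genes in either direction. Slc25a36 and Slc25a33 encode carriers of pyrimidine nucleotides. The Slc25a36 probe set with the smaller p gave 12.45, 12.20, 12.08 and 12.27 in the knockdown and 12.08, 11.81, 11.69 and 11.85 in the control arrays. The highest control and the lowest knockdown array were both at 12.08 when rounded. Its log2 fold change was 0.39 (SE 0.10, limma adjusted p = 0.0527), and the blocked limma fit gave adjusted p = 0.0112. A second probe set of this gene gave 0.31 (SE 0.10, limma adjusted p = 0.0901). Slc25a33 had a log2 fold change of 0.17 (SE 0.06, limma adjusted p = 0.131).

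Slc25a32, the carrier of folate and FAD, was 9.96, 10.18, 10.45 and 10.01 in the knockdown and 10.48, 10.44, 10.62 and 10.42 in the control arrays. Knockdown replicate 3 lay among the controls and the other knockdown arrays below them. Its log2 fold change was -0.34 (SE 0.11, limma adjusted p = 0.0924), and the blocked limma fit gave adjusted p = 0.0434. Slc25a26, which imports S-adenosylmethionine, showed the same arrangement, with 9.74, 9.73, 10.00 and 9.61 in the knockdown and 10.01, 9.99, 10.17 and 9.97 in the control arrays. Its log2 fold change was -0.26 (SE 0.09, limma adjusted p = 0.108), and the blocked limma fit gave adjusted p = 0.0376. Over the 13 carriers with an unadjusted p under 0.05, knockdown replicate 3 was the knockdown array nearest to the control mean in 9. Slc25a42 and Slc25a51, which carry coenzyme A and NAD, and Slc25a16 and the peroxisomal Slc25a17 had log2 fold changes of 0.01 to 0.21, with overlapping groups.

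The adenine nucleotide translocases, which exchange ADP for ATP and are the most abundant carriers of most mitochondria, gave no call. Slc25a4 was 12.14 to 12.38 in the knockdown and 11.95 to 12.41 in the control arrays (log2 fold change 0.16, SE 0.10, limma adjusted p = 0.375). Slc25a5, the form of proliferating cells, was read by 3 probe sets, with log2 fold changes of 0.02, 0.03 and 0.03 (SE 0.05 for each). For the probe set with the smallest p, the 95% interval was -0.07 to 0.14, which describes the signal of this probe set. Slc25a5 has near-identical copies in the genome, and which of them each probe set reads was not tested. Slc25a31, the translocase of germ cells, had a log2 fold change of -0.18 (SE 0.25, limma adjusted p = 0.695). Its wide interval, from -0.75 to 0.40, reflected large differences between the arrays of each group.

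For Slc25a31, whose mean signal was below the median of all probe sets, the signals within each group were in the order of the passage numbers. Its signal was 7.36, 7.91, 8.31 and 8.34 in the knockdown samples of passages 27, 28, 29 and 30, and 7.74, 7.97, 8.30 and 8.62 in the control samples of passages 28, 29, 30 and 31. The groups overlapped, and at each of the 3 shared passages the knockdown sample was slightly above the control. In a limma model with group and passage, the slope was 0.32 per passage on the log2 scale (SE 0.04, unadjusted p = 3.67e-05, adjusted p = 0.222 over all probe sets), which did not pass. The slope ran from 0.27 to 0.35 when single arrays were left out. No gene of the 19938 passed this test, against 10.0% at an unadjusted p under 0.05. Of the carriers, 2 had a positive and 6 a negative slope at an unadjusted p under 0.05, and Slc25a31 had the largest of these slopes. Of the other 6 germ cell markers, Mael had a slope of 0.26 (SE 0.04, limma adjusted p = 0.287), Stk31 of 0.23 (SE 0.04, limma adjusted p = 0.287) and Ddx4 of 0.11 (SE 0.04, limma adjusted p = 0.438), each with an unadjusted p under 0.05, and Dazl, Sycp3 and Tex101 had slopes of -0.01 to 0.06. The slope of Slc25a31 was thus accompanied by those of some other germ cell genes, and none passed. The passage model was added after the values had been seen, and passage and replicate number cannot be told apart within a group.

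**Figure D3:**
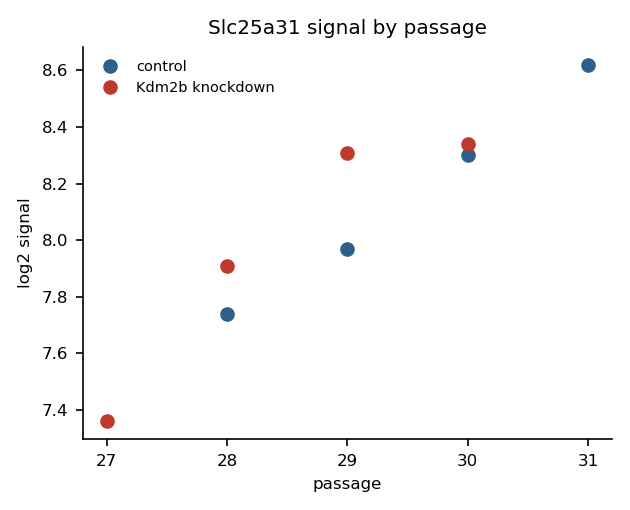
Log2 signal of Slc25a31 against the passage number of each of the 8 samples (4 per group). Each point is 1 array, and signals lie between 7.36 at passage 27 and 8.62 at passage 31.

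Carriers of di- and tricarboxylates gave no call. None of 6 passed with limma, and none had an unadjusted p under 0.05 in either direction. Slc25a1, the citrate carrier that supplies cytosolic acetyl-CoA, was 12.59 to 12.82 in the knockdown and 12.45 to 12.80 in the control arrays (log2 fold change 0.06, SE 0.09, limma adjusted p = 0.686). Slc25a11, which exchanges oxoglutarate for malate in the malate-aspartate shuttle, was 12.38 to 12.58 against 12.34 to 12.46 (log2 fold change 0.06, SE 0.06, limma adjusted p = 0.541). Slc25a10, the dicarboxylate carrier, had a log2 fold change of -0.19 (SE 0.09, limma adjusted p = 0.210). Slc25a21, Slc25a34 and Slc25a35 had log2 fold changes of 0.01 to 0.12.

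Of the relatives of uncoupling proteins, Slc25a30 had the largest positive log2 fold change of the family. Its signal was 11.00, 10.27, 10.06 and 10.48 in the knockdown and 10.12, 9.68, 9.87 and 9.81 in the control arrays. Knockdown replicate 3 lay below control replicate 1, and knockdown replicate 1 was far above both. The log2 fold change was 0.58 (SE 0.19, limma adjusted p = 0.0963), and the blocked limma fit gave adjusted p = 0.0336. Slc25a14 and Slc25a27 had log2 fold changes of 0.02 and 0.12 (limma adjusted p = 0.884 and 0.320). Slc25a46, which lies in the outer membrane and acts in mitochondrial dynamics, and Slc25a53 had non-overlapping groups with small log2 fold changes of 0.10 and 0.14 that did not pass (limma adjusted p = 0.262 and 0.153). Slc25a43 had 0.10 (limma adjusted p = 0.660).

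Because Slc25a12 and Slc25a13 are close relatives, the difference between their changes was tested within arrays, as were those of 8 other pairs of related carriers. The pairs were chosen by relation, with the values of the single genes known. For Slc25a12 and Slc25a13, the groups of each gene were already apart, in opposite directions. Non-overlap of their difference and the smallest possible p were therefore fixed beforehand, and that p adds no support. The log2 difference Slc25a12 minus Slc25a13 was -0.32, -0.31, -0.05 and -0.12 in the knockdown and 0.45, 0.51, 0.44 and 0.33 in the control arrays. Only the shift of this difference between groups is meaningful, since its level depends on the probes. The shift was -0.63 (SE 0.08), with no overlap (exact permutation test over arrays, two-sided, p = 0.0286, which is the smallest p that 4 against 4 arrays allow). After Benjamini-Hochberg adjustment over the 9 pairs it was 0.0514 (exact permutation test). With this floor, at least 6 of the 9 pairs would have to reach it for any adjusted p to fall under 0.05. As 5 did, the adjusted values could not separate one pair from another. The permutation shuffled all arrays and took no account of their replicate numbers, and a version that keeps these together was not run.

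The 3 pairs of ATP-Mg carriers, which combine the same 3 genes and are not independent, had the same arrangement. Slc25a23 minus Slc25a24 shifted by 1.63 (SE 0.35), or by 1.31 without control replicate 1. Slc25a24 minus Slc25a25 shifted by -1.05 (SE 0.34), and Slc25a23 minus Slc25a25 by 0.58 (SE 0.19). The pair Slc25a18 and Slc25a22 shifted by 0.26 (SE 0.06). These 4 pairs also did not overlap, each with p = 0.0286 and 0.0514 after adjustment (exact permutation test). The pairs Slc25a39 and Slc25a40, Slc25a33 and Slc25a36, Slc25a4 and Slc25a5, and Slc25a28 and Slc25a37 overlapped, with adjusted p of 0.129 to 0.571 (exact permutation test).

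**Figure D4:**
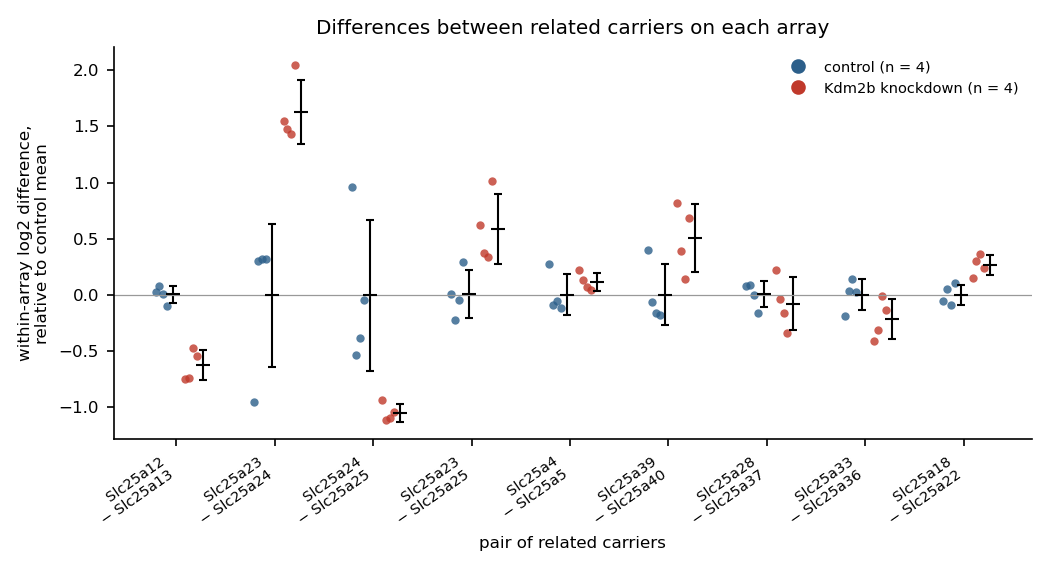
Within-array log2 difference between 2 related carriers for 9 pairs, with the control mean of each pair set to 0. Each point is 1 array, with replicates 1 to 4 from left to right, and black bars mark mean and SD of 4 arrays. For 5 pairs, those of Slc25a12 and Slc25a13, of the 3 ATP-Mg carriers and of Slc25a18 and Slc25a22, the groups do not overlap.

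Genes that work with the carriers were read from 5 further lists, with 72 genes measured. Of these, 7 were higher and 3 lower at an adjusted p under 0.05 (limma), or 13.9% against 10.7% of all genes. The 2 sets are unlike in signal: leaving out dim probe sets kept 65 of the 72 genes but 11606 of all 19938. In that fit 16 of the 65 passed, against 21.7% of all genes, and whether the shares differ was not tested. Among 24 enzymes that share substrates with the carriers, 5 rose, none fell and 19 did not pass. Of all genes, 5.93% were higher and 4.80% lower. Of the 5 enzymes, 2 met the gene rule, against 1.42% of all genes that met it and were higher. At an unadjusted p under 0.05, 7 enzymes were higher and 2 lower (limma), against 30.4% of all genes in either direction. The list had a median log2 fold change of 0.07.

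The enzyme list holds 4 measured genes that transfer acyl groups to or from carnitine, and acylcarnitine is the substrate of Slc25a20. Of these, Cpt1a, Cpt2 and Crat rose, while Cpt1c had a log2 fold change of 0.03 (SE 0.11, limma adjusted p = 0.907). They were set together after their values were seen. Cpt1a, which makes acylcarnitine at the outer membrane, was 12.47, 12.28, 12.05 and 12.29 in the knockdown and 11.75, 11.14, 10.64 and 10.79 in the control arrays. No knockdown array lay below a control array, and control replicate 1 was the highest control. Cpt1a rose 2.28-fold, at a log2 fold change of 1.19 (SE 0.22, limma adjusted p = 0.0179). Cpt2, which takes acyl groups off carnitine in the matrix, rose by 0.48, and Crat, the acetyltransferase, by 0.50 (SE 0.09 and adjusted p = 0.0154 for each, limma). Slc25a20 itself was 11.30, 11.16, 10.95 and 10.63 in the knockdown and 10.85, 10.73, 10.59 and 10.76 in the control arrays. Knockdown replicate 4 lay among the controls, and the log2 fold change of 0.28 did not pass (SE 0.14, limma adjusted p = 0.241). The carrier and the enzymes on either side of it were not tested against each other.

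Mdh1, the cytosolic malate dehydrogenase of the malate-aspartate shuttle, was 12.33 to 12.42 in the knockdown and 12.01 to 12.13 in the control arrays. It rose by 0.30 (SE 0.05, limma adjusted p = 0.0138), whereas Slc25a12 of the same shuttle fell. The other enzymes of the shuttle, Mdh2, Got1 and Got2, had log2 fold changes of -0.01, 0.07 and 0.03 and did not pass (limma adjusted p = 0.914, 0.512 and 0.744). Idh2, the mitochondrial isocitrate dehydrogenase that forms NADPH, was 12.75, 12.31, 12.03 and 12.31 against 11.92, 11.64, 11.45 and 11.57 and rose by 0.70 (SE 0.15, limma adjusted p = 0.0297). Replicate 1 was the highest and replicate 3 the lowest in both groups. The calls on Mdh1, Crat, Cpt2 and Cpt1a were lost without knockdown replicate 2, that on Cpt2 also without control replicate 3, and that on Cpt1a also without replicate 4 of either group (limma adjusted p of 0.0501 to 0.0567). Idh2 lost its call without replicate 2 or 4 of either group or without control replicate 3 (limma adjusted p up to 0.0881).

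Nearly all genes of carrier import had log2 fold changes below 0, most of them small. Of 15 measured TOM and TIM22 genes, 2 fell, none rose and 13 did not pass (limma), while 4.80% of all genes fell and 5.93% rose. At an unadjusted p below 0.05, 8 were lower and 0 higher, against 30.4% of all genes in either direction. The log2 fold change was below 0 for 14 of the 15, against 38.3% of all genes, and the median was -0.14. All knockdown arrays lay below all control arrays for 7 of the 15, against 9.18% of all genes. Tomm5, a small TOM subunit, was 10.96, 10.60, 10.88 and 10.84 in the knockdown and 11.01, 11.32, 11.55 and 11.44 in the control arrays. Timm8a1, a chaperone of the intermembrane space, was 9.47, 9.76, 10.14 and 9.89 against 10.20, 10.34, 10.38 and 10.37. Neither overlapped between groups, although control replicate 1 lay just above knockdown replicate 1 for Tomm5 and just above knockdown replicate 3 for Timm8a1. Each fell by 0.51 (SEs 0.12 and 0.13, limma adjusted p = 0.0406 and 0.0468). In the blocked limma fit, Tomm5 had adjusted p = 0.0535 and Timm8a1 passed. The call on Tomm5 was lost without any 1 array other than knockdown replicate 3 and control replicate 1, and that on Timm8a1 without any 1 other than knockdown replicate 3 (limma adjusted p up to 0.109 and 0.123). With arrays centred on their medians, Timm8a1 had a limma adjusted p of 0.0529, and its second, brighter probe set gave -0.45 at 0.0522.

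Of 17 other transporters and channels of the mitochondrial membranes, 2 rose, 1 fell and 14 did not pass, while 5.93% of all genes rose and 4.80% fell. Sfxn5, a sideroflexin, was 9.65 to 9.83 in the knockdown and 9.16 to 9.27 in the control arrays, and rose by 0.50 (SE 0.06, limma adjusted p = 0.00372). This call held without any 1 array. Mpc1, a subunit of the pyruvate carrier, rose by 0.29 (SE 0.07, limma adjusted p = 0.0361), and Sfxn1, the mitochondrial serine transporter, fell by 0.25 (SE 0.06, limma adjusted p = 0.0393). Neither passed in the blocked limma fit (adjusted p = 0.0510 and 0.0544). Mpc1 kept its call only without knockdown replicate 3 or control replicate 2, and Sfxn1 only without knockdown replicate 3 or control replicate 1, among the 8 fits that leave out 1 array. In the carrier family members with other symbols, Ucp1, Ucp3, Mtch1 and Mtch2, no change passed (limma), and none had an unadjusted p under 0.05. The smallest p values were those of Ucp1 and Mtch1, at log2 fold changes of 0.09 and -0.11 (limma adjusted p = 0.422 and 0.608). None of 12 regulators of mitochondrial genes passed (limma). At an unadjusted p below 0.05, 1 was higher and 4 were lower, against 30.4% of all genes in either direction. The smallest p values were those of Esrra, a nuclear receptor, and Pprc1, a coactivator, with log2 fold changes of 0.19 and -0.25 (SEs 0.06 and 0.08, limma adjusted p = 0.0754 and 0.0821). Pprc1 passed in the blocked limma fit, at adjusted p = 0.0368.

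**Figure D5:**
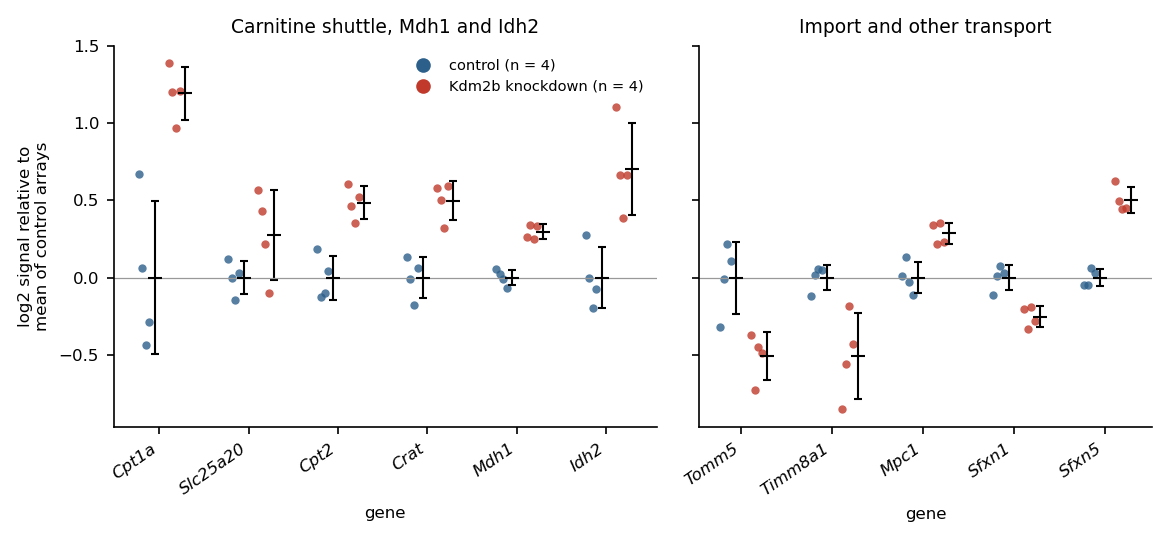
Signal of Slc25a20 and of genes that work with the carriers, by array on the log2 scale, with the control mean of each gene set to 0. Each point is 1 array, with replicates 1 to 4 from left to right, and black bars mark mean and SD of 4 arrays. Of the genes shown, Slc25a20 is the only one whose groups overlap.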

How the data were processed

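Gene expression was measured on 8 Affymetrix arrays, 4 of the knockdown and 4 of the control line, and samples were grouped by their labels. The authors deposited log2 values made from probe intensities with RMA in oligo 1.18.1, which corrects background, gives all arrays one distribution and summarises probes. Shifts common to most genes are therefore not visible, and differences of dim probe sets are understated. For the probe sets, a genome build and an annotation version were not given in the sources used here. Array medians lay between 8.47 and 8.53, and the number of arrays limits the precision.

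Probe sets were named through GEO's platform annotation and the RefSeq table of GRCm38.p6: 21789 name 1 gene, 1621 several and 12146 none. Members and lists were chosen with earlier results of these data known. lmFit and eBayes of limma 3.58.1 in R 4.3.3 compared the groups over all 35556 probe sets. P-values were adjusted after Benjamini-Hochberg, and a gene was represented by its probe set with the smallest p. Named were the carriers that passed, the 10 next by p, 11 chosen for their role, and up to 6 genes that passed per further list (with none, the 2 with the smallest p); other members are given by range or value. Pairs were compared with exact permutation tests in scipy 1.17.1. The fit was tested on simulated data.

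Replicate numbers are shared by the groups. After subtracting group means, arrays with the same number correlated at 0.239, 0.118, 0.355 and 0.222, each above 0.1, and were treated as pairs for this purpose. The fit reported has no block. The blocked value stands where it changes the call on a carrier or on a gene named from the further lists by the rule above. Changed calls on other genes of those lists are not given singly. Of 17 alternatives, passage as a numeric covariate was chosen after seeing the data.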

Additional observations from a re-analysis of the deposited data

Results flagged for a closer look

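In 4 of 92 groups of 4 arrays (46 carriers in each of 2 groups), 1 array stood apart from the others by the test of Dixon, which marks about 1 group in 20 by chance. Slc25a1 was 12.82 in knockdown replicate 1 and 12.59 to 12.60 in the other knockdown arrays. Slc25a14 was 8.03 in knockdown replicate 3, with the others at 7.89 to 7.91. Slc25a25 was 8.83 in knockdown replicate 4, with the others at 8.78 to 8.79. Slc25a26 was 10.17 in control replicate 3, with the other controls at 9.97 to 10.01. None of these 4 genes passed the comparison of the groups.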

How the results depend on the processing

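The median log2 fold change of the carriers kept its sign and moved by less than the spread between replicates in all 17 alternatives. The counts, which rest on few genes near the threshold, moved in both directions (main counts: 1 higher, 3 lower, 1 by the gene rule, 10 in the further lists). With the replicate number as a block, 4 carriers were higher and 6 lower (21.7% of carriers, against 14.8% of all genes), and 13 genes of the further lists passed. With array weights, 5 were higher, 7 lower (26.1% of carriers, against 28.1% of all genes in that fit) and 24 genes of the further lists passed. A trended robust prior gave 2 higher (10.9% of carriers in either direction, against 11% of all genes). Leaving out dim probe sets gave 2 higher among 35 carriers (17.1% in either direction, against 21.7% of all genes). It gave 16 in the further lists. With an ordinary linear model, 0 carriers were higher (8 at an unadjusted p under 0.05), 1 was lower, 0 met the gene rule and 2 of the further genes passed. Of all genes, 4.44% passed with that model. With passages 28 to 30 alone and passage as a block, 0 carriers were higher, 0 lower, 0 met the gene rule and 0 of the further genes passed (5, 4 and 16 at an unadjusted p under 0.05 for higher and lower carriers and further genes). That fit has fewer arrays, and 0.873% of all genes passed in it. With passage as a numeric covariate, 0 were higher (7 at an unadjusted p under 0.05), 0 met the gene rule and 5 of the further genes passed. The share of all genes that passed with this covariate was 5.79%. Leaving out single arrays gave 0 to 3 higher, 1 to 5 lower, 0 to 1 by the gene rule, and 1 (without knockdown replicate 2) to 20 (without knockdown replicate 3) in the further lists. In these fits the share of all genes that passed ran from 3.38% (without knockdown replicate 2) to 18.1% (without knockdown replicate 3). Slc25a12 passed in 16 of 17 alternatives, Slc25a39 in 8, and Slc25a24 and Slc25a38 in 7 each. None of the named genes reversed its direction where it passed, but some that did not pass changed sign. Slc25a31 went from -0.18 to 0.14 with passage as a numeric covariate and to 0.19 with passages 28 to 30 alone. Slc25a1 went from 0.06 to -0.03 and -0.04 in the same fits. With 1 array left out, the pairs cannot reach an exact p below 0.0571.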
